A study of Homo sapiens with 4 samples.

Results

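Glutathione synthesis and peroxidase genes were followed through knockdown of CEBPB in A549 cells. The group comprises 10 of the 57820 genes in the expression table and was picked out by gene symbol; the list itself was drawn up with earlier results of these data known: SLC7A11, GCLC, GCLM, GSS, GSR, GPX1, GPX2, GPX3, GPX4 and GLRX. Glutathione is the main small thiol of the cytosol. Cells import cystine, reduce it to cysteine, join cysteine to glutamate in the rate-limiting step and then add glycine. Peroxidases spend the resulting thiol on hydrogen peroxide and lipid peroxides, glutaredoxin uses it to remove glutathione from proteins, and glutathione reductase regenerates it with NADPH. Many of these genes are textbook targets of NRF2, a transcription factor that binds antioxidant response elements.

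A549 is an established human lung adenocarcinoma line, described by the submitters as NRF2-activated, and this background was shared by every library. The design had 2 groups of 2 libraries of total RNA, and asks which transcripts depend on CEBPB, a transcription factor of the C/EBP family. The control group held 2 libraries transfected with control siRNA, and the knockdown group held 1 library transfected with CEBPB siRNA-1 and 1 with CEBPB siRNA-2. All cells grew in DMEM with 10% FBS, received fresh medium 24 h after transfection and were harvested a further 24 h later. Each siRNA was thus seen in a single library, and the labels do not say whether the controls were separate cultures, so p-values measure the spread between these 4 libraries only.

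Levels are given in FPKM, which scales reads by transcript length and library depth, so levels of different genes can be compared. Library totals ran from 494066 to 528606 FPKM, relative depth from 0.967 to 1.02 of control 1, and the mean normalized counts in the authors' deposited table summed to 8341080. CEBPB itself was at 78.7 and 80.9 FPKM in control cells, 12.9 under siRNA-1 and 11.0 under siRNA-2 (log2 change -2.65 ± 0.17 SE, n = 2 libraries per group, limma adjusted p = 0.0167). Its call did not hold when control 1 (adjusted p = 0.461) or control 2 (0.328) was left out. Of 5 epithelial markers, all were above 1 FPKM in every library, with summed levels of 3599 and 5058 FPKM in control cells, 1824 under siRNA-1 and 2841 under siRNA-2. These sums are nearly all KRT8 and KRT18, keratins of simple epithelia, of which KRT18 was lower in the authors' deposited table (log2 change -1.21, adjusted p = 0.0324). KRT19, another such keratin, was at 2.41 and 3.28 FPKM in control cells and higher in both siRNA libraries, at 5.32 and 7.38, and passed in neither table (limma log2 change 0.93, adjusted p = 0.248; 1.24 in the authors' deposited table, adjusted p = 0.171). All 4 leukocyte markers and both endothelial markers analysed were listed at 0, and 2 erythroid markers summed to at most 0.131 FPKM. The 4 fibroblast markers summed to 0.734 and 0.592 FPKM in control cells, 4.48 under siRNA-1 and 2.23 under siRNA-2, nearly all of it COL1A1, a collagen chain that was higher in the authors' deposited table (log2 change 1.88, adjusted p = 0.00621) and did not pass in limma (1.32, adjusted p = 0.198). Whether these marker levels have a part in the results below was not tested. In bulk RNA, fewer cells expressing a gene and less RNA per cell cannot be told apart.

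Among the 10 genes, GPX2 fell with CEBPB siRNA and none rose in limma, a linear model fitted to all 14068 genes that averaged 1 FPKM or more, at a Benjamini-Hochberg adjusted p under 0.05. All 10 members passed that filter. Over all tested genes 24 were called lower, or 0.171%, and 9 higher, or 0.0640%. The authors' deposited table calls 2 members lower, GPX2 and GLRX, and 0 higher, where 1.42% of its 14675 genes with an adjusted p were lower and 2.71% higher. At an unadjusted p under 0.05, limma had 4 of the 10 lower (GPX2, GLRX, GSR and GCLM) and 0 higher, against 5.13% lower and 7.07% higher over all genes. At that level the authors' table had 5 lower, against 3.99% of its genes, the fifth being GCLC. Both siRNA libraries lay below both controls for 6 of the 10 (GCLC, GCLM, GSS, GSR, GPX2 and GLRX), against 21.0% of all tested genes. For GPX1 both lay above both controls, as they did for 23.5% of genes, and for SLC7A11, GPX3 and GPX4 one siRNA library lay above and the other below both controls, against 20.3%. The members' median log2 change was -0.44, beside 0.0010 over all tested genes. In the authors' deposited table the medians were -0.47 and -0.0041.

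**Figure D1:**
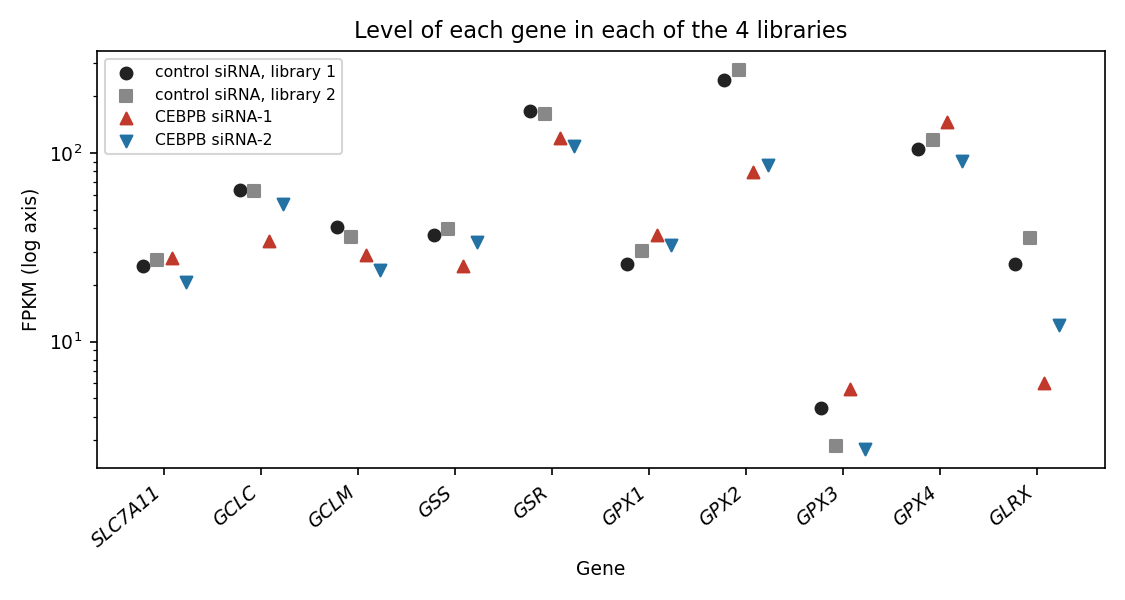
FPKM (log axis) of the 10 genes in each library, 1 point per library: circles and squares are the controls, upward triangles CEBPB siRNA-1 and downward triangles CEBPB siRNA-2. The points of GPX2 drop from 245 and 277 to 79.3 and 86.0, and those of GLRX from 25.8 and 35.6 to 6.04 and 12.3, while GPX4 and SLC7A11 have the siRNA libraries on either side of the controls.

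In the controls GPX2 had the highest level, followed by GSR, GPX4 and GCLC, with no overlap between neighbours in this order. GCLM and GSS came next and overlapped each other, then GLRX, GPX1 and SLC7A11, each overlapping the next, and GPX3 was last. GPX2 stood at the 98.3rd percentile of tested genes in the controls and GPX3 at the 26.3rd. With CEBPB siRNA the order changed at the top: GPX4 and GSR led and overlapped, and GPX2 followed them. GLRX moved from above GPX1 in the mean of the controls to below it in both siRNA libraries.

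Short promoter sequences are shown for the members in which a motif tied to either factor was found, since the knockdown lowers the transcript of a C/EBP factor and the line is NRF2-activated. The 250 bases before the transcript start were searched on both strands in RefSeq promoters (GRCh38.p14), which matched 7 of the 10 genes; GSS, GSR and SLC7A11 had no entry. The letters searched were TGACNNNGC for the antioxidant response element core, TTGCNNAA for C/EBP and TGATGNAA for the C/EBP-ATF element, no 2 of which can match the same whole stretch, though they can share bases. Each sequence is written 5′ to 3′ on the strand of its gene, which is the minus strand in all cases, with the match in capitals.
GPX2, chr14:64942849-64942877, antioxidant response element core on the other strand: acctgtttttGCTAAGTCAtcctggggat
GCLM, chr1:93909446-93909474, antioxidant response element core on the other strand: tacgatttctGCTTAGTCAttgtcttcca
GCLC, chr6:53545279-53545306, C/EBP letters on the gene's strand: tatgtcgcgtTTGCGTAAagcgaggccg
The GPX2 match lies 122 to 114 bases before its start, the GCLM match 34 to 26 and the GCLC match 195 to 188. The antioxidant response element core was found in 2 of 7 member promoters and 11.0% of 27326 promoters, the C/EBP letters in 1 of 7 and 9.13%, and the C/EBP-ATF letters in 0 of 7 and 3.18%. These matches are letters in a window, with no binding measured here. GPX2 and GCLM carry the same core pattern, and the changes of their transcripts are given below.

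Transport of cystine was described by SLC7A11, the light chain of the cystine-glutamate antiporter (on chromosome 4). SLC7A11 was at 25.2 and 27.1 FPKM in control cells, 27.8 under siRNA-1 and 20.6 under siRNA-2. The siRNA-1 library was just above both controls and the siRNA-2 library below them. Its log2 change was -0.12 (95% interval -0.62 to 0.38, limma adjusted p = 0.861), and the authors' table gives -0.13 (adjusted p = 0.999). The interval leaves room for a fall of the size seen in GCLM. SLC7A11-AS1, which overlaps it on the opposite strand, was between 0.615 and 1.18 FPKM. SLC3A2, the heavy chain that carries the antiporter to the membrane, was chosen after its values were seen: 205 and 244 FPKM in control cells, 100.2 under siRNA-1 and 233 under siRNA-2, so that the siRNA-1 library alone was below both controls.

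The first step of synthesis is carried out by glutamate-cysteine ligase, whose catalytic subunit is GCLC (chromosome 6) and whose modifier subunit is GCLM (chromosome 1). GCLC was at 63.3 and 63.1 FPKM in control cells, 34.1 under siRNA-1 and 53.8 under siRNA-2. Both siRNA libraries were below the controls, the siRNA-1 library at 53.9% of their mean and the siRNA-2 library at 85.1%. The log2 change of GCLC was -0.55 (95% interval -1.16 to 0.05, limma adjusted p = 0.456) and did not pass. In the authors' deposited table it was -0.54 ± 0.27 SE (p = 0.0449, adjusted p = 0.412). Without siRNA-2 the change was -0.87 and past the threshold (adjusted p = 0.0206), in a fit that called 12.5% of all genes, and in the 3-group fit it passed at -0.55 (adjusted p = 0.0490), where 6.90% of all genes did.

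GCLM was at 40.4 and 36.0 FPKM in control cells, 28.6 under siRNA-1 and 24.0 under siRNA-2. Here the siRNA-2 library was the lower one, at 62.8% of the control mean against 75.0%. The log2 change of GCLM was -0.52 (95% interval -0.96 to -0.08, limma adjusted p = 0.329), and -0.57 ± 0.25 SE in the authors' deposited table (adjusted p = 0.240), so it passed in neither. Within each siRNA library the subunits thus stood at different percentages of their control means. The ratio of GCLC to GCLM FPKM was 1.57 and 1.75 in control cells, 1.19 under siRNA-1 and 2.24 under siRNA-2. The siRNA ratios lay on either side of the control ratios (exact two-sided permutation p = 1).

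GSS, glutathione synthetase (chromosome 20), which adds glycine, was at 36.6 and 39.6 FPKM in control cells, 25.2 under siRNA-1 and 33.9 under siRNA-2. As for GCLC, the siRNA-1 library was the lower. The log2 change was -0.37 (95% interval -0.87 to 0.12, limma adjusted p = 0.534) and did not pass, nor in the authors' table (-0.42, adjusted p = 0.664). GSR, glutathione reductase (chromosome 8), was at 168 and 162 FPKM in control cells, 121 under siRNA-1 and 109 under siRNA-2. The siRNA libraries were close to each other, at 73.1% and 66.3% of the control mean, and did not overlap the controls. The log2 change of GSR was -0.52 ± 0.15 SE (95% interval -0.89 to -0.14, limma adjusted p = 0.276). It did not pass in the authors' deposited table either (-0.51, adjusted p = 0.228), where GSR had the largest mean normalized count of the members, 3942.

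**Figure D2:**
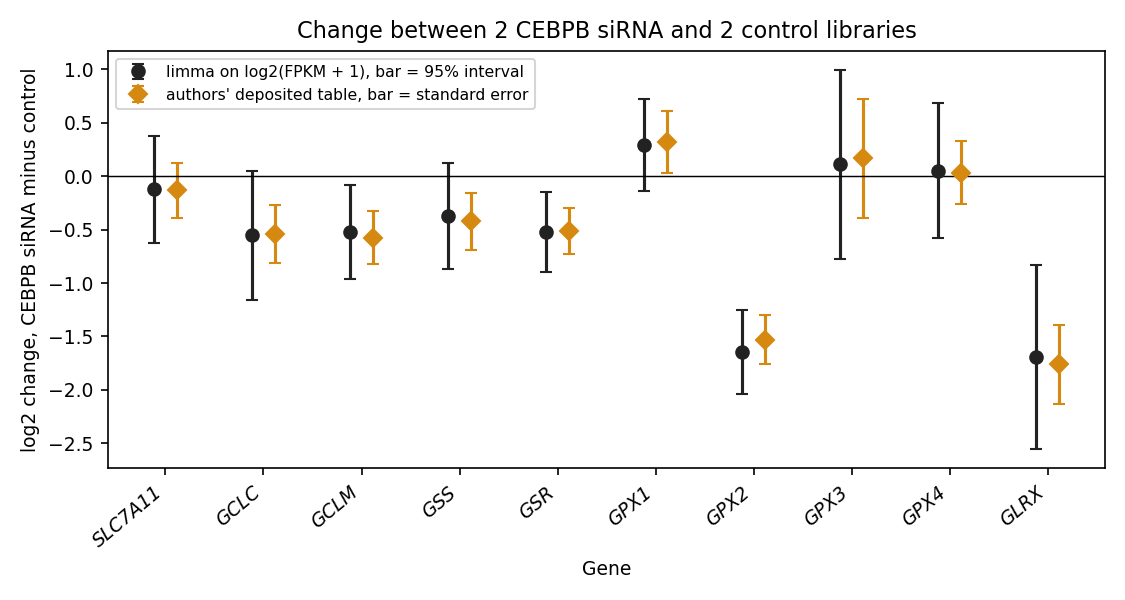
Log2 change of CEBPB siRNA over control for the 10 genes: circles are limma on log2(FPKM + 1) with 95% intervals (n = 2 libraries per group), diamonds the authors' deposited values with standard errors. GPX2 and GLRX sit at -1.64 and -1.70 in limma, GCLC, GCLM, GSS and GSR between -0.55 and -0.37, and the other genes between -0.12 and 0.30.

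The glutathione peroxidases GPX1, GPX2, GPX3 and GPX4 are selenoproteins, with selenocysteine in the active site. GPX2 is the form best known from gut epithelium (chromosome 14). It was at 245 and 277 FPKM in control cells, 79.3 under siRNA-1 and 86.0 under siRNA-2. The siRNA libraries lay far below the controls and close to each other, at 30.4% and 33.0% of the control mean. GPX2 fell by 1.64 ± 0.16 SE on the log2 scale (95% interval -2.03 to -1.26, limma adjusted p = 0.0344), and the authors' deposited table gives -1.53 ± 0.23 SE (adjusted p = 9.2e-09). Without control 1 the log2 change was -1.73 and without control 2 it was -1.56, and neither passed (limma adjusted p = 0.541 and 0.574). Leaving out siRNA-1 gave -1.59 and leaving out siRNA-2 gave -1.70, both still called; the call was also lost with upper-quartile scaling (adjusted p = 0.0520), with no intensity trend (0.0734) and with no filter (0.343), at changes of -1.64. GPX2 overlaps CHURC1 and CHURC1-FNTB on the opposite strand in GENCODE 29. CHURC1 was at 28.3 and 42.2 FPKM in control cells and 29.4 and 26.3 with the siRNAs. Its log2 change was -0.31 in limma (adjusted p = 0.655) and 0.13 in the authors' deposited table (adjusted p = 0.999). CHURC1-FNTB was listed at 0 in the controls and at 1.63 and 3.60 with the siRNAs. Its level is uncertain, since its mean normalized count was 0 in the authors' deposited table. Whether strand was used in the counting is not given in the sources used here.

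GPX4, which reduces lipid peroxides within membranes and thereby limits ferroptosis (chromosome 19), was at 106 and 117 FPKM in control cells, 147 under siRNA-1 and 90.7 under siRNA-2. The siRNA libraries were on opposite sides of the controls. The mean log2 change was 0.05 (95% interval -0.58 to 0.68, limma adjusted p = 0.956), and without siRNA-1 it was -0.29. GPX1, the broadly expressed cytosolic form (chromosome 3), was at 25.9 and 30.2 FPKM in control cells, 36.7 under siRNA-1 and 32.6 under siRNA-2. Both siRNA libraries were above both controls, by a margin that did not pass (log2 change 0.30, 95% interval -0.14 to 0.73, limma adjusted p = 0.564). Its level is uncertain, since its pseudogene GPX1P1 was listed at 4.78 to 7.16 FPKM with a mean normalized count of 0.266 in the authors' deposited table, and GENCODE 29 types GPX1 as a polymorphic pseudogene. GPX3, the secreted plasma form (chromosome 5), was at 4.46 and 2.80 FPKM in control cells, 5.59 under siRNA-1 and 2.68 under siRNA-2. The controls of GPX3 differed by 0.52 on the log2 scale, and its change was 0.11 (95% interval -0.77 to 0.998, limma adjusted p = 0.931). That interval is too wide to show a difference.

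Summed over GPX1 to GPX4, peroxidase transcripts were at 381 and 427 FPKM in control cells, 268 under siRNA-1 and 212 under siRNA-2. GPX2 made up 64.3% and 64.8% of that sum in control cells, 29.6% under siRNA-1 and 40.6% under siRNA-2, so GPX4 had the largest share in both siRNA libraries, at 54.7% and 42.8%. The sum of the other 3 forms was 136 and 150 FPKM in control cells, 189 under siRNA-1 and 126 under siRNA-2, on either side of the controls. For the total and for the GPX2 share the groups did not overlap (exact two-sided permutation p = 0.333, the smallest that 2 libraries against 2 allow).

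**Figure D3:**
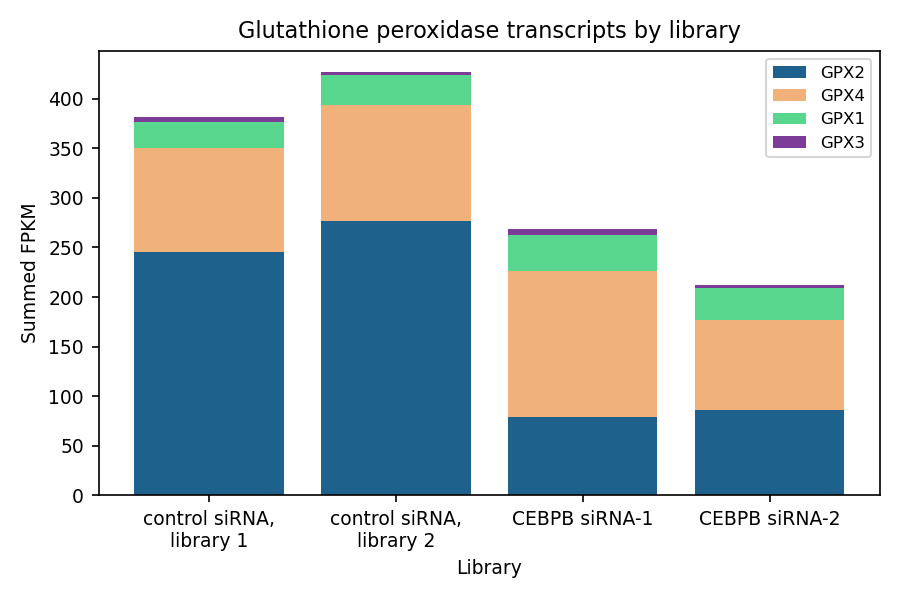
Summed FPKM of GPX2, GPX4, GPX1 and GPX3 in each of the 4 libraries, as stacked bars from 0. The bars reach 381 and 427 in the controls and 268 and 212 with the siRNAs, and the GPX2 part shrinks from 245 and 277 to 79.3 and 86.0.

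GLRX encodes glutaredoxin 1, which removes glutathione from protein thiols (chromosome 5). GLRX was at 25.8 and 35.6 FPKM in control cells, 6.04 under siRNA-1 and 12.3 under siRNA-2. Both siRNA libraries were below both controls, at 19.7% and 40.04% of their mean, but libraries of the same group also differed. The log2 change was -1.70 ± 0.35 SE (95% interval -2.56 to -0.83), close to that of GPX2, and did not pass in limma (adjusted p = 0.161). It passed in the authors' deposited table, at -1.76 ± 0.37 SE (adjusted p = 0.000157). In limma the log2 change was -2.15 without siRNA-2 and -1.24 without siRNA-1. Without control 1 it was -1.92 and without control 2 it was -1.47. RHOBTB3, which overlaps GLRX on the opposite strand, was at 5.08 and 5.12 FPKM in control cells, 3.83 under siRNA-1 and 5.60 under siRNA-2 (log2 change -0.11, limma adjusted p = 0.896).

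Since each CEBPB siRNA was a different molecule, their libraries were also set against each other in a limma fit with 3 groups, in which the lone library of each siRNA is taken to scatter like the control pair. None of the 10 genes passed, where 0.441% of all tested genes did, and 3 had an unadjusted p under 0.05, against 22.4% of all genes. These were GPX4, at 0.69 higher with siRNA-1 on the log2 scale (95% interval 0.29 to 1.09, adjusted p = 0.101), GCLC at -0.64 (-1.02 to -0.27, adjusted p = 0.102) and GLRX at -0.92 (-1.61 to -0.22, adjusted p = 0.154). The siRNA-1 library thus had the higher GPX4 and the lower GCLC and GLRX. For GPX2 the difference was -0.12 (95% interval -0.53 to 0.30), for GSR 0.14 (-0.23 to 0.50), for GCLM 0.25 (-0.20 to 0.69) and for GPX1 0.17 (-0.30 to 0.64). All these intervals rest on the spread of the control pair (1 residual degree of freedom) and hold no spread within either siRNA, so they neither bound the difference between the siRNAs nor show that it is absent. CEBPB itself stood at 16.2% (siRNA-1) and 13.7% (siRNA-2) of its control mean. Against the same control mean, the members had medians of -0.42 (siRNA-1) and -0.32 (siRNA-2), beside -0.034 and 0.040 over all tested genes. With only genes averaging at least 5 FPKM, GPX4, GCLC and GLRX passed, as did 13.6% of all genes tested there.

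**Figure D4:**
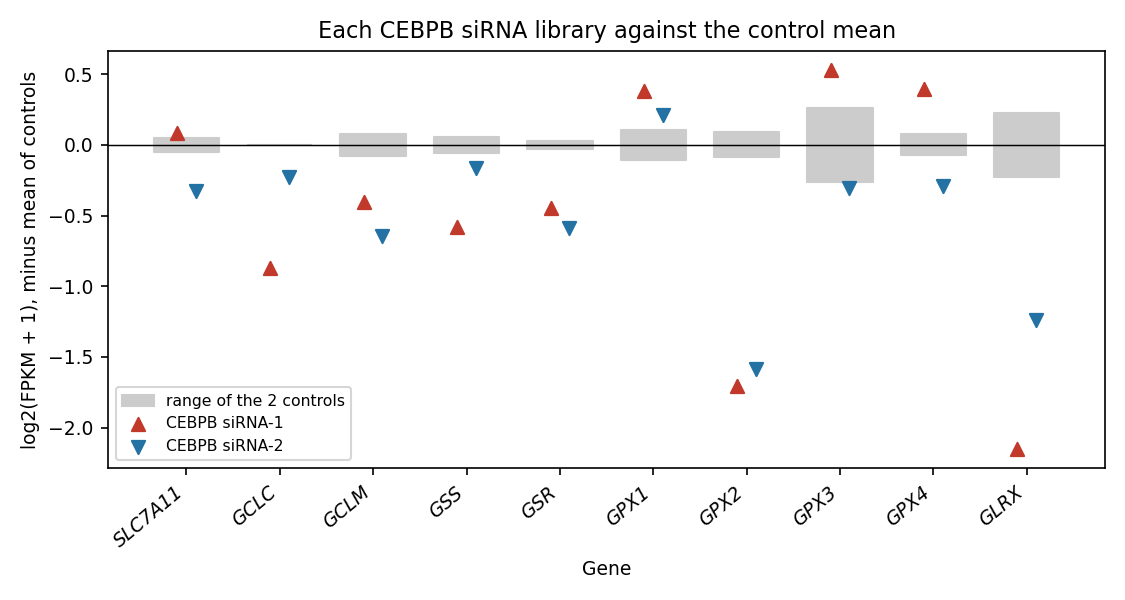
log2(FPKM + 1) of each CEBPB siRNA library minus the mean of the controls, for the 10 genes; grey boxes span the 2 controls, which both siRNA libraries share. The triangles of GPX2 are close together at -1.70 and -1.59, those of GLRX lie apart at -2.15 and -1.24, and those of GPX4 fall on either side of the box at 0.39 and -0.29.

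Other genes of glutathione metabolism were taken from 11 lists of 111 genes, of which 91 were tested. In limma 0 rose and 0 fell at an adjusted p under 0.05, and 2 were higher and 10 lower at an unadjusted p under 0.05, where 7.07% of all tested genes were higher and 5.13% lower. Of the 97 with an adjusted p in the authors' deposited table, 5 fell and 0 rose, where 1.42% of all its genes were lower and 2.71% higher. Both siRNA libraries were below both controls for 32 of the 91 and above for 12, against 21.0% and 23.5% of all tested genes, and the median log2 change was -0.088.

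The genes the authors' table calls lower act at different points. CTH, the transsulfuration enzyme that releases cysteine, was at 5.79 and 6.19 FPKM in control cells, 1.59 under siRNA-1 and 1.55 under siRNA-2 (limma log2 change -1.44, adjusted p = 0.0983; authors' deposited table -1.74, adjusted p = 0.00412). It was the single call among 9 cystine and cysteine supply genes in that table; the median of the 8 tested in limma was -0.24. PTGES, a glutathione-dependent prostaglandin E synthase, was at 108 and 80.2 FPKM in control cells, 8.80 under siRNA-1 and 21.1 under siRNA-2. Its log2 change of -2.68 did not pass in limma (adjusted p = 0.102) and was -2.70 in the authors' deposited table (adjusted p = 1.4e-12), the single call among 8 other glutathione-using enzymes (median -0.21). Of these enzymes 2 had both siRNA libraries below both controls and 1 above. PGD, which supplies the NADPH that GSR uses, was at 859 and 981 FPKM in control cells, 452 under siRNA-1 and 476 under siRNA-2 (log2 change -0.98, limma adjusted p = 0.110; authors' deposited table -0.94, adjusted p = 0.000743). CTH, PTGES and PGD all had the siRNA libraries well apart from the controls. The NADPH supply list had both siRNA libraries below both controls for 6 of its 8 genes and above for 0, with a median of -0.32. Over all tested genes these shares were 21.0% and 23.5%.

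Among glutathione breakdown genes, GGT5, a gamma-glutamyl transferase family member, was at 1.83 and 1.92 FPKM in control cells, 0.351 under siRNA-1 and 0.487 under siRNA-2. DPEP1, a dipeptidase that splits cysteinylglycine, was at 1.21 and 1.32 FPKM in control cells and listed at 0 with both siRNAs, and it was under the filter for limma. The authors' deposited table calls both lower (adjusted p = 0.0268 and 0.0424), at mean normalized counts of only 24.8 and 11.4. The median of the 10 tested breakdown genes was 0.05. Of these, 1 had both siRNA libraries below both controls and 2 above, against 21.0% and 23.5% of all tested genes.

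In the remaining lists no gene passed in limma or in the authors' deposited table, and the gene with the smallest limma p is named for each. Of 9 glutamate and glycine supply genes (median 0.13) it was the glutamine carrier SLC1A5, with a log2 change of 0.24. Of 8 export and mitochondrial import genes (median -0.0075) it was the efflux pump ABCC3, at -0.63. Of 6 other peroxidases and glutaredoxins (median -0.33) it was catalase, CAT, at -0.54. Among these 6, 4 had both siRNA libraries below both controls and 0 above, against 21.0% and 23.5% of all tested genes. GPX8, 1 of these 4 and named after its values were seen, was at -0.36 in limma. In the authors' deposited table its log2 change was 0.025. Of 13 other selenoproteins (median -0.065) the gene with the smallest limma p was SEP15, a selenoprotein of the endoplasmic reticulum, at -0.52. Of 8 selenocysteine machinery genes (median -0.092) it was SEPHS2, which makes selenophosphate, at -0.36. Of 7 lipid peroxidation and ferroptosis genes (median -0.066) it was the transferrin receptor TFRC, at -0.32. Of 6 genes of NRF2 regulation (median -0.35) it was NFE2L2, which encodes NRF2, at 37.9 and 35.6 FPKM in control cells, 28.2 under siRNA-1 and 26.6 under siRNA-2 (log2 change -0.41, limma adjusted p = 0.384). The limma adjusted p of the other 6 genes lay between 0.258 and 0.623. In NRF2 regulation 4 of 6 genes (NFE2L2, KEAP1, MAFG and MAFK) had both siRNA libraries below both controls and 0 above. That list was not divided by whether a gene raises or lowers NRF2 activity, so its count gives no direction for NRF2. The counts below and above were 4 and 0 of 8 for selenocysteine machinery, and 3 and 0 of 7 for lipid peroxidation and ferroptosis. They were 3 and 1 of 8 for export and import, and 3 and 3 of 13 for other selenoproteins. For glutamate and glycine supply they were 0 and 2 of 9.

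**Figure D5:**
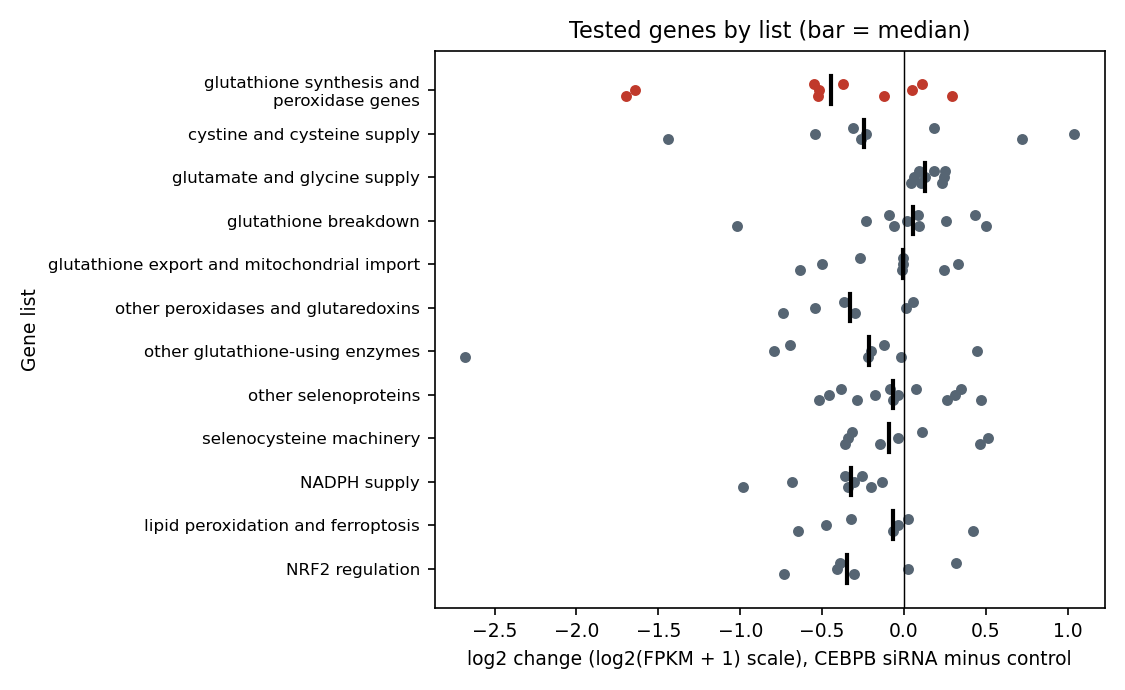
Log2 change (log2(FPKM + 1) scale) of each tested gene, 1 point per gene, by list; vertical bars are list medians. The 10 glutathione synthesis and peroxidase genes have a median of -0.44, and the other 11 lists have medians between -0.35 and 0.13.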

How the data were processed

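Libraries were strand-specific and read as 76-base single-end reads, per the labels' protocols. The submitters' processing notes name STAR (2.7.0d) and, likewise without stated roles, HTSeq (0.13.5), StringTie (2.1.4) and DESeq2 (1.26.0), and the build hg19. The authors deposited 1 value per gene and library, read here as FPKM, already scaled to length and depth by the authors: no header states the unit, but the gene columns are styled like StringTie output and the library sums are unequal. Per the file headers, the other columns are the authors' DESeq2 results: the signal column is their mean normalized count, and beside it stand their log2 fold change with its standard error, their Wald score and their p-values. These were quoted, not recomputed.

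Log2(FPKM + 1) of the 14068 genes averaging 1 FPKM or more was fitted in limma (3.58.1, under R 4.3.3), the prior variance following intensity. P-values were adjusted by Benjamini-Hochberg and called under 0.05. The fit has 2 residual degrees of freedom. It was tested on simulated data with changes larger than that of any member and with the libraries of a group drawn alike. That test does not cover smaller changes or siRNAs that differ. Log2 changes on this scale understate those of low genes. The depth of single libraries is known only relative to control 1, from the steps of low FPKM values. Alternatives changed the pseudocount, filter, scaling, trend, groups, libraries and replicate block. Members and lists were chosen with earlier results of these data known. Named were all members, CEBPB, and in each list up to 4 genes past the threshold in either table, or the gene with the smallest limma p. SLC25A10, on more than 1 row, and PECAM1 were not analysed here. Promoters are RefSeq's (GRCh38.p14), the window listed first for each gene, and gene overlaps are from GENCODE 29; neither is the build of the files.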

Additional observations from a re-analysis of the deposited data

Results flagged for a closer look

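GPX4, GPX3 and SLC7A11 were flagged because the siRNA-1 library lay above both controls and the siRNA-2 library below both. The log2 difference of siRNA-1 minus siRNA-2 was 0.69 for GPX4, 0.84 for GPX3 and 0.41 for SLC7A11. In the 3-group limma fit none of these differences passed (adjusted p = 0.101, 0.233 and 0.240), and each siRNA is represented by 1 library. Such an arrangement, in either order, was seen in 20.3% of all tested genes.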

How the results depend on the processing

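The members' limma count was 1 (GPX2) in the fit reported. It was 0 with no filter, with upper-quartile scaling, with no intensity trend and with the replicate block, where 4, 4, 4 and 5 members had an unadjusted p under 0.05. It was 3 (GCLC, GPX2 and GLRX) in the 3-group fit. Leaving out 1 library at a time it ran from 0 (without either control, 2 members at an unadjusted p under 0.05 in each) to 3 (without siRNA-2). Over all genes the count of 33 became 0 with no filter (2438 at an unadjusted p under 0.05), 971 in the 3-group fit, or 6.90% of genes, and 0 to 1764 when single libraries were left out: 0 without control 1 (736 at an unadjusted p under 0.05), 0 without control 2 (685), 72 without siRNA-1 and 1764 without siRNA-2, or 12.5% of genes. The members' median of -0.44 was -0.40 with a pseudocount of 5 and -0.52 with a filter of 5 FPKM, which drops GPX3, and ran from -0.43 to -0.32 without single libraries, the latter without siRNA-1. Between siRNAs, the member count of 0 became 3 with the filter of 5 FPKM; leaving out a control there gives no residual degrees of freedom, so it was not run. Genes that did not pass changed sign: over fits without 1 library, GPX4 ran from -0.29 (without siRNA-1) to 0.39 and was -0.022 without control 1, GPX3 ran from -0.31 (without siRNA-1) to 0.53 and was -0.15 without control 2, and SLC7A11 ran from -0.33 to 0.084 (without siRNA-2). The 6 members lower in both siRNA libraries, and GPX1, kept their sign in all alternatives run. Apart from the scalings this was fixed in advance, since their siRNA libraries lay on one side of both controls. For GPX4, GPX3 and SLC7A11, with siRNA libraries on opposite sides, a change of sign on leaving out 1 siRNA library was likewise fixed. CEBPB lost its limma call with no filter (adjusted p = 0.262), without control 1 (0.461) and without control 2 (0.328). Where calls changed, the cause was not tested. With the replicate block GPX2 had an adjusted p of 0.0504 at a log2 change of -1.64; the labels give only shared numbers, and the difference between the controls correlated at 0.075 across genes with that between the siRNAs. Median shifts of all genes under other scalings stayed under 0.1 on the log2 scale. GPX3 had the lowest mean normalized count of the members in the authors' deposited table, 50.9, and whether depth widened its interval was not tested.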
